A study of Mus musculus with 8 samples.

Results

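The Frizzled receptors are the family of membrane proteins that bind Wnt ligands, and all 10 of their genes, *Fzd1* to *Fzd10*, were taken by symbol from 46517 genes in bulk RNAseq and 24051 genes in single nucleus (sn)RNAseq of the adult mouse hippocampus. *Wls* fl/-;*Gfap*-Cre (mutant) mice, in which Cre removes the remaining functional copy of *Wls*, were compared with *Wls* fl/+;*Gfap*-Cre (control) mice, which keep 1 copy, so that *Gfap*-Cre was present in every animal and the controls were heterozygous in the cells that had Cre. The Gfap promoter drives Cre in a subset of neural progenitors and their progeny, so *Wls* is not removed from every cell. Each of the 8 samples came from both hippocampi of 1 mouse, described as male and 12 weeks old, with 2 mutant and 2 control mice in each assay. The bulk libraries held 59786165 and 79576196 expected counts in the mutants and 56002381 and 66684515 in the controls, and the nuclei numbered 5304 and 10460 in the mutants and 6469 and 7192 in the controls, with 26307081, 76486132, 38980264 and 61559052 unique molecular identifiers (UMIs). With 2 samples against 2, an exact two-sided permutation test cannot give a p below 0.333, so the tests below are from a model fitted across all genes.

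A Frizzled holds an extracellular cysteine-rich domain that binds Wnt, 7 membrane-spanning helices and a cytoplasmic end that recruits Dishevelled. With the co-receptors *Lrp5* and *Lrp6* it stabilises beta-catenin, and with other partners it directs planar cell polarity and axon growth. *Wls* carries Wnts to the cell surface, so its deletion acts on the cells that send Wnts and leaves the receptor genes themselves intact. In the brain, *Fzd3* is known for axon guidance, *Fzd4* for the development of blood vessels in response to Norrin, and *Fzd9* for its expression in the hippocampus.

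The results are ordered by the customary subfamilies of the receptors, which coding sequence follows in part. Over aligned coding bases, identity was 81.5% between *Fzd1* and *Fzd2*, 78.5% between *Fzd2* and *Fzd7* and 77.9% between *Fzd1* and *Fzd7*. It was 76.3% between *Fzd5* and *Fzd8*, 70.8% between *Fzd9* and *Fzd10*, 66.3% between *Fzd4* and *Fzd9* and 63.7% between *Fzd3* and *Fzd6*. Pairs across these groups could be as near, such as *Fzd1* and *Fzd8* (70.9%) and *Fzd1* and *Fzd5* (69.6%), and *Fzd4* and *Fzd10* (65.0%) were less alike than *Fzd1* and *Fzd10* (65.9%). The median over all 45 pairs was 63.9% and the lowest was 52.2%, between *Fzd3* and *Fzd8*. The feature every member shares is the Dishevelled-binding motif that follows the last helix, a lysine and a threonine, then 3 residues of any kind, then a tryptophan. It was found once in frame in each of the 10 coding sequences. The coding strand around it (GRCm38, gencode vM21) is shown for 9 members, to show how alike they are where the receptors meet their common transducer. The lysine, threonine and tryptophan codons are in capitals.
Fzd1 (chr5:4755694-4755735, minus strand): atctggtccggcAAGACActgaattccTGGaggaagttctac
Fzd2 (chr11:102606361-102606402, plus strand): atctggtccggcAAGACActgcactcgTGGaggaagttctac
Fzd7 (chr1:59484595-59484636, plus strand): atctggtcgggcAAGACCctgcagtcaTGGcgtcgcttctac
Fzd5 (chr1:64734999-64735040, minus strand): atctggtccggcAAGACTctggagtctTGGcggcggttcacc
Fzd4 (chr7:89408229-89408270, plus strand): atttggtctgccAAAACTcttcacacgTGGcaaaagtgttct
Fzd9 (chr5:135249404-135249445, minus strand): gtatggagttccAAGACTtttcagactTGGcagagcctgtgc
Fzd10 (chr5:128602784-128602825, plus strand): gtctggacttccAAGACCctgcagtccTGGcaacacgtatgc
Fzd3 (chr14:65212095-65212136, minus strand): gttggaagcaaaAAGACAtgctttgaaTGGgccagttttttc
Fzd6 (chr15:39033937-39033978, plus strand): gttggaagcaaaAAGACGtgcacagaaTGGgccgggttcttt

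Of the 42 bases shown, 39 were the same in *Fzd1* and *Fzd2* and 34 in *Fzd3* and *Fzd6*, against 9 in all 9 members. Most of those 9 lie in the codons by which the motif was found. Pairs across the groups could be as near here too: *Fzd5* and *Fzd7* shared 34, and *Fzd1* and *Fzd7*, of 1 group, shared 32. The motif also divides the family by what follows it. In *Fzd1*, *Fzd2* and *Fzd7* the coding sequence ends 17 codons after the tryptophan, whereas 159 codons follow in *Fzd3*, 206 in *Fzd6* and 33 to 74 in the other 5. Gene structure also sets *Fzd3* and *Fzd6* apart. *Fzd1*, *Fzd2*, *Fzd7*, *Fzd8*, *Fzd9* and *Fzd10* have no intron, *Fzd3* spans 70015 bases of which 81.7% are intronic, and *Fzd6* spans 32155 bases of which 85.0% are intronic. Introns made up 23.5% of *Fzd4* and 3.88% of *Fzd5*. Nuclei hold unspliced RNA and were counted against an index of whole gene bodies, so UMIs are compared below between cell types for 1 gene and never between genes. *Fzd3*, *Fzd5* and *Fzd6* also overlap other annotated genes (*Gm27263* and *Gm9086*, *Gm38058*, and *Gm26704*), and the bulk libraries came from a directional kit, but whether the counting used strand is not given in the sources used here.

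Some samples and labels did not match their descriptions. *Wls* was at 3.67 and 6.86 CPM in the mutant and 13.2 and 13 CPM in the control bulk libraries (counts per 1000000 counts, after TMM scaling), so that both mutants lay below both controls (log2 fold change -1.31, FDR = 0.117 by edgeR's quasi-likelihood test). Replicate 2 of both genotypes in bulk had high *Xist*, the RNA of the inactive X chromosome, at 101 TPM in the mutant and 175 TPM in the control, and low *Ddx3y*, a Y-linked gene, at 0.17 and 0.30 TPM (RSEM's level per length). In replicate 1 *Xist* was at 0.35 and 0.12 TPM and *Ddx3y* at 28.9 and 30.9 TPM. *Xist* and *Ddx3y* thus went against the described sex in 2 of the 4 bulk libraries, 1 of each genotype, and values within each replicate number are given below. All 4 samples of nuclei had *Ddx3y*, at 31.6 to 53.8 UPM (UMIs per 1000000 UMIs).

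The deposited cell type labels were checked against marker genes. Of 10 labels named for a cell type with a marker list, 10 had the highest sum of that list among the 21 labels. The label EC, which the sources used here do not spell out, had the highest sums for endothelium (5326 UPM) and pericytes (2215 UPM), in 24 nuclei. Inhibitory neurons 14, with 519 nuclei, summed to 4282 UPM for meninges, 2723 UPM for endothelium, 1872 UPM for astrocytes and 1723 UPM for pericytes. Their sum for inhibitory neurons was 386 UPM. Excitatory neurons 19, with 135 nuclei, summed to 3115 UPM for meninges, 1012 UPM for astrocytes and 96.8 UPM for excitatory neurons. Inhibitory neurons 15 summed to 397 UPM for excitatory and 76.9 UPM for inhibitory neurons. These 3 are called clusters 14, 19 and 15 below, since their markers go against their labels. Choroid plexus (CP) nuclei were present in 1 mutant and 1 control sample. Pairs of samples shared 8 to 21 cell barcodes.

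In whole hippocampus the Frizzleds were transcripts of low to moderate level. Per length, *Fzd2* was highest, with a mean of 6.91 TPM over the 4 libraries, followed by *Fzd7* (5.29 TPM), *Fzd4* (5.23 TPM), *Fzd1* (5.17 TPM), *Fzd6* (4.21 TPM), *Fzd10* (3.15 TPM), *Fzd9* (2.96 TPM), *Fzd8* (2.60 TPM), *Fzd3* (2.03 TPM) and *Fzd5* (0.633 TPM). All lay below the median of 9.64 TPM over the 20687 genes tested. The order of neighbours is loose: *Fzd2* ranged from 5.24 to 8.15 TPM and *Fzd7* from 4.33 to 7.91 TPM, and those ranges overlapped, whereas the range of *Fzd5*, 0.46 to 0.80 TPM, lay below that of every other member. The 10 summed to 36.4 and 46.2 TPM in the mutants and 34.5 and 35.7 TPM in the controls.

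No Frizzled was called between genotypes in bulk RNAseq at the study's thresholds, a fold change above 3 with an FDR below 0.05. *Fzd4* and *Fzd10* had the highest log2 fold changes of the family, 0.84 each. By CPM, both mutants lay above both controls for *Fzd2*, *Fzd4*, *Fzd7* and *Fzd10*, both lay below for *Fzd8*, and the genotypes overlapped for the other 5. By TPM, 2 members lay higher, *Fzd4* and *Fzd10*, and 2 lower, *Fzd1* (4.83 and 5.11 against 5.57 and 5.18 TPM) and *Fzd8*, and *Fzd7* overlapped (4.35 and 7.91 against 4.33 and 4.57 TPM). The count of calls, 0 of 10, stands beside a background of 0.218% of 20687 genes called (41 lower and 4 higher). The 4 of 10 above stand beside 25.8% of all genes with both mutants above both controls, and the 1 of 10 below beside 25.4%. Over the family the median log2 fold change was 0.13, against 0.011 over all genes. In bulk tissue, fewer cells of a type and less RNA per cell cannot be told apart.

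**Figure D1:**
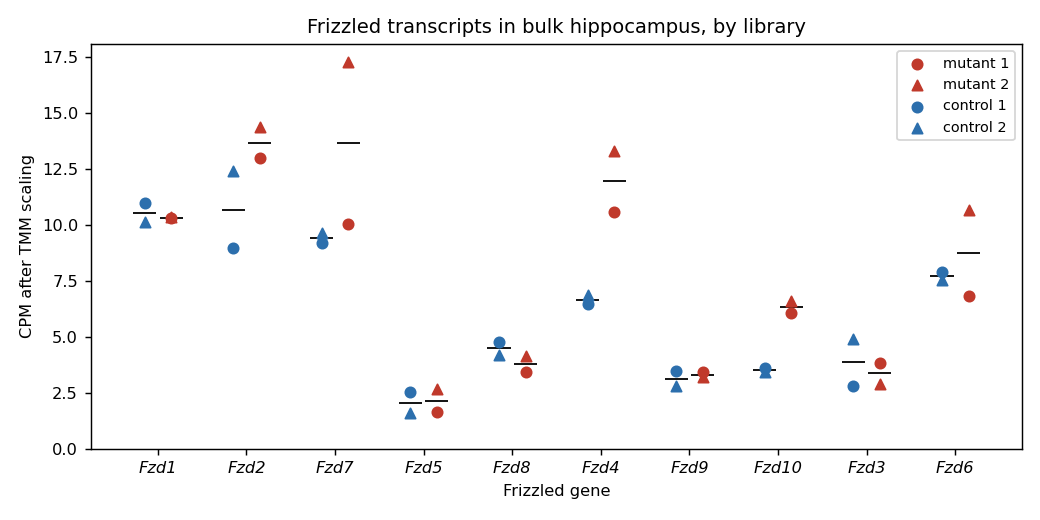
CPM of each Frizzled gene (x axis, near relatives together) in the 4 bulk libraries, after TMM scaling (y axis, from 0), with controls in blue, mutants in red, circles for replicate 1, triangles for replicate 2 and a line at each mean. The mutants sit at 10.6 and 13.3 CPM for *Fzd4* and at 6.07 and 6.60 CPM for *Fzd10*, above the controls of each.

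Of the group of *Fzd1*, *Fzd2* and *Fzd7*, receptors that signal to beta-catenin, *Fzd1* was at 10.3 and 10.3 CPM in the mutants and 11.0 and 10.1 CPM in the controls. The controls lay on either side of the mutants, with a log2 fold change of -0.030 ± 0.109 (SE). *Fzd2* was at 13 and 14.4 CPM in the mutants and 8.98 and 12.4 CPM in the controls (log2 fold change 0.36 ± 0.178, FDR = 0.363 by edgeR's quasi-likelihood test). Control replicate 1 was the low library, and by TPM the genotypes overlapped. *Fzd7* was at 10.1 and 17.3 CPM in the mutants and 9.21 and 9.67 CPM in the controls (log2 fold change 0.54 ± 0.261, FDR = 0.349). Mutant replicate 2 alone stood apart for *Fzd7*. Without it the log2 fold change was 0.084, and without mutant replicate 1 it was 0.87 (FDR = 0.00893 by edgeR's quasi-likelihood test), still short of the fold required.

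*Fzd5* and *Fzd8*, receptors of early eye and forebrain development, did not pass the test either. *Fzd5* was at 1.63 and 2.68 CPM in the mutants and 2.55 and 1.58 CPM in the controls (log2 fold change 0.070 ± 0.352). The spread within each genotype was larger than the difference between them, and the reads were few, 95.9 to 213 expected counts. *Fzd8* was at 3.45 and 4.16 CPM in the mutants and 4.78 and 4.21 CPM in the controls (log2 fold change -0.24 ± 0.176). It was the member with both mutants below both controls by CPM, by a margin of 4.16 against 4.21 CPM.

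In the group of *Fzd4*, *Fzd9* and *Fzd10*, *Fzd4*, the receptor of Norrin, was at 10.6 and 13.3 CPM in the mutants and 6.47 and 6.88 CPM in the controls. Both mutants lay above both controls, by TPM too (5.66 and 7.50 against 3.75 and 4.01 TPM). The log2 fold change was 0.84 ± 0.151 (FDR = 0.0834 by edgeR's quasi-likelihood test). *Fzd10* was at 6.07 and 6.60 CPM in the mutants and 3.61 and 3.46 CPM in the controls, again without overlap and again by TPM too (3.68 and 4.23 against 2.38 and 2.29 TPM). Its log2 fold change was 0.84 ± 0.144 (FDR = 0.0772). *Fzd9* was at 3.45 and 3.19 CPM in the mutants and 3.47 and 2.79 CPM in the controls (log2 fold change 0.087), with overlap.

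*Fzd4* and *Fzd10* were the 2 members with an unadjusted p below 0.05, both higher, beside 8.86% of all genes that were higher at that p. DESeq2 gave FDR = 0.000519 for *Fzd4* and 0.0031 for *Fzd10*, beside 3.15% of all genes that were higher with a DESeq2 FDR below 0.05, but neither reached a fold of 3. At that FDR and any fold, 938 genes were lower and 652 higher. Within replicate 1 and within replicate 2, which differ in *Xist*, the log2 difference in CPM was 0.70 and 0.94 for *Fzd4* and 0.73 and 0.91 for *Fzd10*. Since both mutants lay above both controls for these 2, neither difference could have turned, so they are no further check. The same holds for *Fzd2* (0.53 and 0.21), *Fzd7* (0.13 and 0.83) and, lower in both, *Fzd8* (-0.46 and -0.018). The differences for *Fzd6* (-0.21 and 0.49), *Fzd3* (0.44 and -0.75) and *Fzd5* (-0.61 and 0.73) turned between the replicate numbers.

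Of the pair known for planar polarity and axon guidance, *Fzd3* was at 3.86 and 2.89 CPM in the mutants and 2.82 and 4.92 CPM in the controls (log2 fold change -0.20 ± 0.314). *Fzd6* was at 6.83 and 10.7 CPM in the mutants and 7.92 and 7.55 CPM in the controls (log2 fold change 0.18 ± 0.228, FDR = 0.734 by edgeR's quasi-likelihood test). The genotypes overlapped for both.

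Markers of several tissues and cell types moved with genotype in the same libraries. The 10 choroid plexus markers summed to 1133 and 9242 TPM in the mutants and 194 and 92.2 TPM in the controls, 9 of 10 were higher in both mutants, and *Ttr* led with 1062, 8761, 154 and 58.1 TPM. The 5 ependymal markers summed to 76.6 and 73.0 against 41.8 and 36.2 TPM, with 5 of 5 higher in both mutants and *Rarres2* at the head. The 5 granule cell markers summed to 52.4 and 46.6 against 197 and 202 TPM, with 5 of 5 lower. The 4 markers of CA1, which held 41.3% of the *Fzd10* UMIs and 20.0% of the *Fzd4* UMIs in nuclei beside 31.3% of all UMIs, summed to 331 and 440 against 247 and 301 TPM, with 4 of 4 higher in both mutants and Wfs1 at the head. None of these markers was at 0 in the controls. Endothelial markers summed to 187 and 184 against 206 and 187 TPM, and meningeal markers to 40.6 and 46.9 against 50.3 and 54.3 TPM. The sums of astrocyte markers (1166 and 1105 against 1339 and 1325 TPM) and of CA2 markers (266 and 250 against 329 and 307 TPM, although 3 of 4 were higher) were lower in both mutants. So were those of CA3 markers (175 and 174 against 198 and 184 TPM) and microglial markers (145 and 136 against 156 and 150 TPM). The sum of excitatory neuron markers was lower as well (1166 and 1192 against 1228 and 1203 TPM), although 2 of 4 were higher. The sum of OPC markers was higher in both mutants (149 and 131 against 127 and 124 TPM). Of 5 pericyte markers, 4 were higher and 1 lower in both mutants, and their sums overlapped (122.2 and 136.9 against 130.8 and 137.0 TPM). The sums of inhibitory neuron markers also overlapped (372 and 445 against 379 and 374 TPM), although 3 of 4 were higher. CP nuclei held 0.501% of all UMIs. Of the UMIs of each member they held 12.8% for *Fzd6*, 8.77% for *Fzd7*, 6.26% for *Fzd4*, 1.74% for *Fzd2*, 1.14% for *Fzd8* and 0.580% for *Fzd3*. The pooled levels there, not comparable between genes, were 47.2, 14.7, 31.4, 13.8, 2.95 and 48.1 UPM in the same order. *Fzd10*, like *Fzd1*, *Fzd5* and *Fzd9*, had 0 UMIs in CP nuclei, which allows up to 2.95 UPM. Mutant replicate 2, the library with the most choroid plexus markers, was also the highest of the 4 in CPM for *Fzd2*, *Fzd4*, *Fzd5*, *Fzd6*, *Fzd7* and *Fzd10*. Among these, *Fzd5* and *Fzd10* had 0 UMIs in CP nuclei. The share of all genes that were highest in that library is not given here, so this list stands without a background. The part of the choroid plexus, ependymal, granule cell and other markers in the values of the members was not tested.

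**Figure D2:**
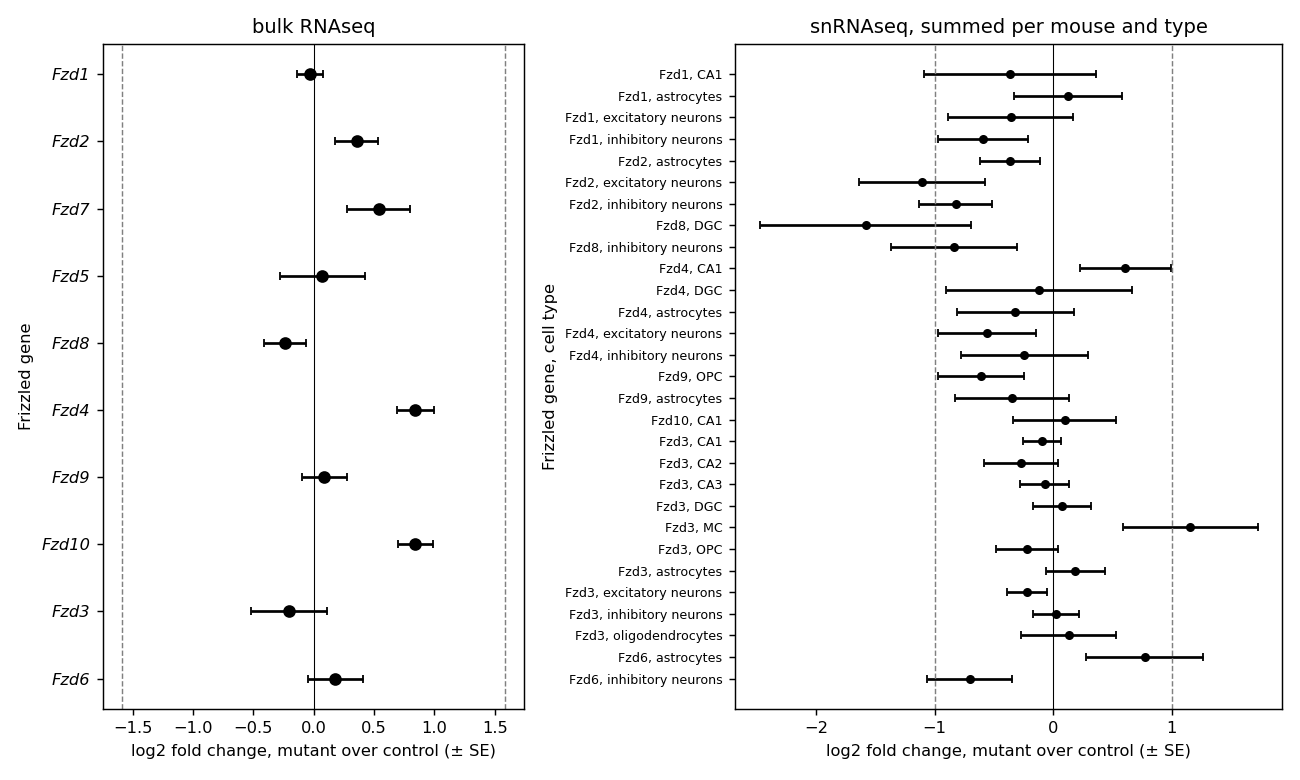
Log2 fold change of mutant over control (x axis) with its standard error for the 10 Frizzled genes in bulk RNAseq (left) and for the 29 pairs of a Frizzled gene and a cell type tested in nuclei (right), with dashed lines at the fold required for a call, 3 in bulk and 2 in nuclei. In bulk every point lies inside the dashed lines, and *Fzd4* and *Fzd10* are farthest from 0, at 0.84 each.

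In nuclei, the Frizzleds other than *Fzd3* and *Fzd5* were highest in a few labels, most of them outside the neurons. The deposited labels were made from the same nuclei, so the levels by label are a description without a test. Clusters 14 and 19, EC and CP together held 1.66% of all UMIs but 56.4% of the UMIs of *Fzd6*, 32.8% of *Fzd2*, 24.6% of *Fzd7*, 22.5% of *Fzd4* and 15.6% of *Fzd8*. Their share of *Fzd3* was 1.66%, the same as of all UMIs. In labels with 10 or more nuclei in every sample, cluster 14 was highest for *Fzd2*, *Fzd6*, *Fzd8* and *Fzd10*, cluster 19 for *Fzd1*, *Fzd4* and *Fzd7*, OPCs (oligodendrocyte precursors) for *Fzd9*, excitatory neurons 7 for *Fzd3* and oligodendrocytes for *Fzd5*.

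**Figure D3:**
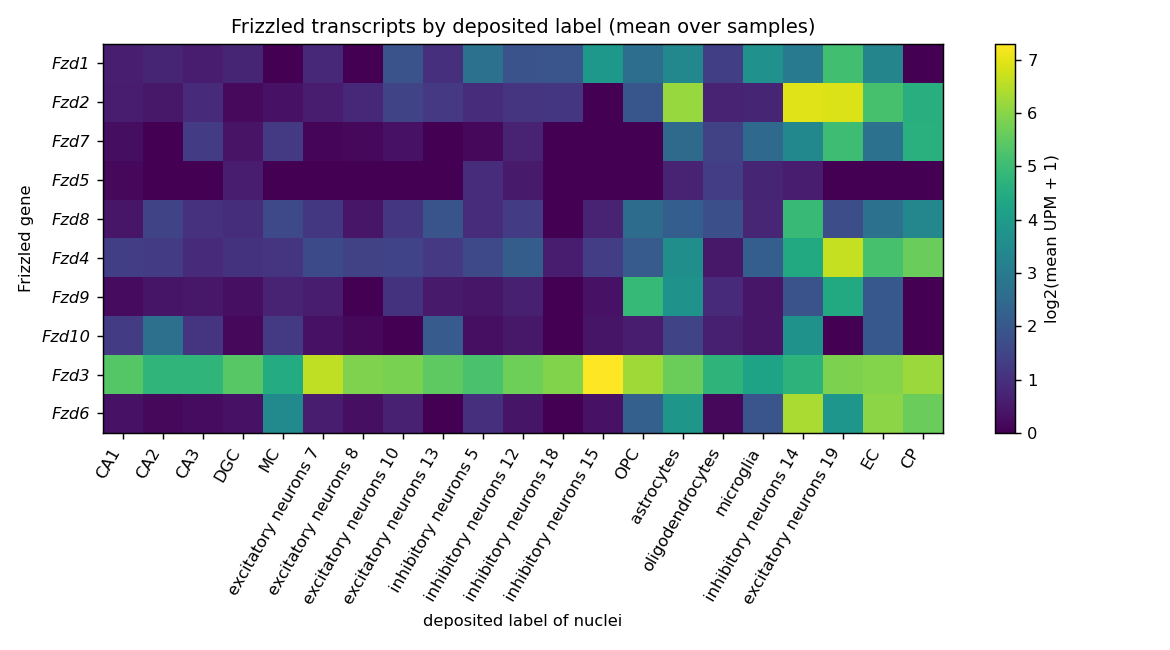
Mean UPM over the samples that hold a label, as log2(mean UPM + 1) in colour, for each Frizzled gene (rows) in the 21 deposited labels (columns). Colours are to be compared along a row only, since UMIs are not comparable between genes, and EC and CP rest on 24 and 193 nuclei. *Fzd2* is high in astrocytes and clusters 14 and 19, and *Fzd9* in OPCs. *Fzd3* has UMIs in every column, with its lowest mean in microglia.

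*Fzd2* had 806 UMIs in 29425 nuclei, of which 51.1% were in astrocytes and 24.6% in cluster 14. In cluster 14 it was at 103 and 96.3 UPM in the mutants and 162 and 124 UPM in the controls, in cluster 19 at 126 and 69.2 against 107 and 174 UPM, and in astrocytes at 77.4 and 51.7 against 67.9 and 86.8 UPM. The range of cluster 14 lay above that of astrocytes, and that of cluster 19 overlapped with both. EC and CP, in few nuclei, had means of 35.1 and 23.0 UPM, OPCs had 2.86 UPM, and the remaining labels, all of neurons, oligodendrocytes or microglia by their names, had less. A *Fzd2* UMI was found in 16.4% of 2167 astrocytes (95% interval 14.9 to 18.1%, exact binomial, counting error only) and in 0.245% of 2446 oligodendrocytes, where median depths were 1964 to 3440 and 1727 to 2339 UMIs per nucleus over the samples. With each nucleus thinned to 1500 UMIs, the shares were 10.7% and 0.123%.

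Of its near relatives, *Fzd1* had 358 UMIs, of which 30.4% were in inhibitory neurons 5, at 3.60 to 7.45 UPM. It was at 21.0 and 14.8 UPM in the mutants and 40.2 and 54.9 UPM in the controls in cluster 19, on 13 UMIs. In astrocytes *Fzd1* was even, at 8.60 and 10.3 against 10.7 and 8.73 UPM. *Fzd7* had 171 UMIs, of which 26.3% were in CA3, at 0.340 to 2.95 UPM. It had 63.1 and 9.89 against 26.8 and 27.4 UPM in cluster 19, on 10 UMIs, 6.45 and 7.05 against 12.8 and 12 UPM in cluster 14, and 2.87 and 3.58 against 7.15 and 5.34 UPM in astrocytes. The astrocyte and cluster 14 values of *Fzd7* lay lower in both mutants, on 1 to 11 UMIs a sample, too few to enter the test.

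**Figure D4:**
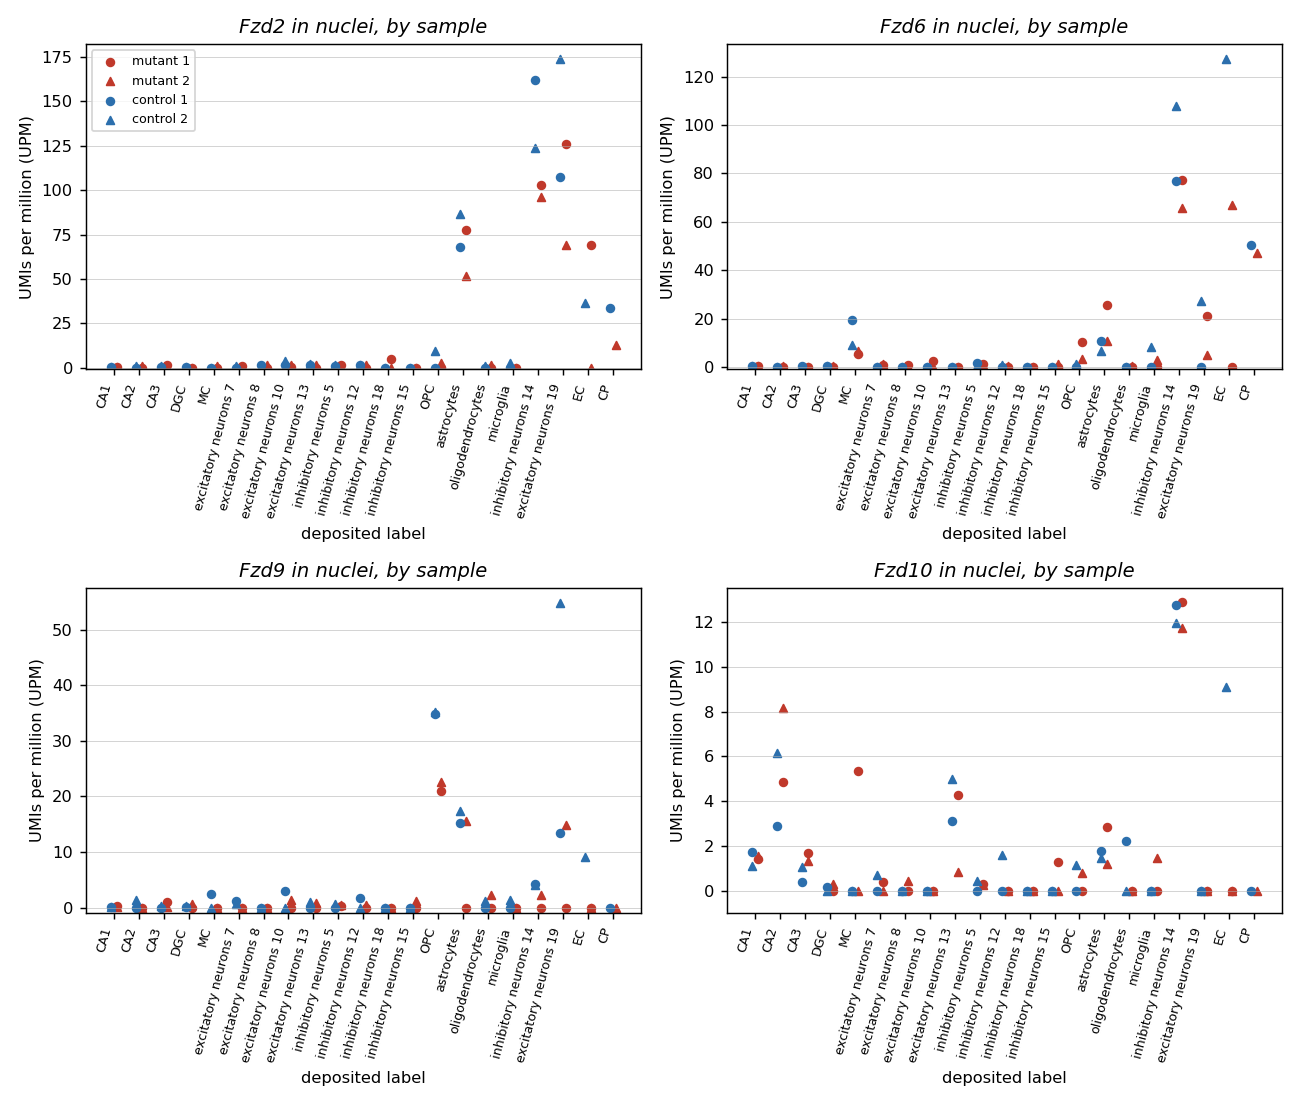
UPM (y axis) of *Fzd2*, *Fzd6*, *Fzd9* and *Fzd10* in each deposited label (x axis) and sample, with controls in blue, mutants in red, circles for replicate 1 and triangles for replicate 2. *Fzd2* peaks in astrocytes and clusters 14 and 19, *Fzd6* in cluster 14, EC and CP, *Fzd9* in OPCs at 21.1 to 35.3 UPM, and *Fzd10* in cluster 14 at 11.7 to 12.9 UPM.

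*Fzd5* was detected in few nuclei at this depth. It had 57 UMIs in all and 0 in 13 of the 21 labels, and its highest mean, in oligodendrocytes, was 1.51 UPM on 10 UMIs. Inhibitory neurons 5 and granule cells held 16 UMIs each, and in inhibitory neurons 5 every sample had some, at 0.470 to 1.27 UPM. *Fzd8* had 263 UMIs. In cluster 14 it was at 45.1 and 9.40 UPM in the mutants and 42.6 and 22.0 UPM in the controls, and in OPCs at 5.26 and 4.66 against 4.10 and 5.69 UPM.

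*Fzd4* was highest in cluster 19, followed by CP, EC and cluster 14, the labels of high meningeal, choroid plexus or vascular markers. In cluster 19 it was at 147 and 34.6 UPM in the mutants and 161 and 54.9 UPM in the controls, on 32 UMIs, and in cluster 14 at 19.3 and 24.7 against 8.53 and 29.9 UPM. In CP it was at 29.2 UPM in the mutant and 67.1 UPM in the control that held such nuclei, on 28 and 4 UMIs. In astrocytes it was at 0 and 14.3 UPM in the mutants and 17.9 and 13.1 UPM in the controls. The 0 was in mutant replicate 1, which had 167 astrocytes.

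OPCs and astrocytes held 32.8% and 37.2% of the 247 UMIs of *Fzd9*. In OPCs it was at 21.1 and 22.5 UPM in the mutants and 34.9 and 35.3 UPM in the controls, with both mutants below both controls. In astrocytes it was at 0 and 15.5 UPM in the mutants and 15.2 and 17.5 UPM in the controls. Its mean in cluster 19, 20.8 UPM, lay between those of OPCs (28.4 UPM) and astrocytes (12 UPM), at 0 to 54.9 UPM on 10 UMIs, a range that overlapped with both. A *Fzd9* UMI was found in 8.03% of 984 OPCs and in 0.327% of oligodendrocytes, and in 4.17% and 0.204% after thinning, with median depths in OPCs of 2030 to 3608 UMIs.

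*Fzd10* was even over the mice in cluster 14, the label where it was highest. It was at 12.9 and 11.7 UPM in the mutants and 12.8 and 12 UPM in the controls, on 2 to 10 UMIs a sample, and this range did not overlap with the next, CA2 pyramidal neurons, at 4.85 and 8.19 against 2.90 and 6.14 UPM. A *Fzd10* UMI was found in 7.95% of 415 CA2 nuclei and 0.0613% of 4896 granule cells (DGC), and in 0.723% and 0% after thinning, with median depths of 9706 to 16520 UMIs in CA2 nuclei and 4242 to 7688 in granule cells. The level in granule cells was 0 to 0.292 UPM, below the range in CA2. In CA1 it was at 1.42 and 1.55 against 1.73 and 1.10 UPM.

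*Fzd3*, the longest gene of the family, had 8453 UMIs, with some in each of the 21 labels. Free RNA can give UMIs in any label, and *Ttr*, the choroid plexus gene, had 24.0 UPM in CA1, so UMIs in a label do not by themselves show expression there. The mean of *Fzd3* was lowest in microglia, at 18.0 UPM. In excitatory neurons 7 it was at 72.5 and 95.2 UPM in the mutants and 111 and 107 UPM in the controls, in OPCs at 84.2 and 60.6 against 80.0 and 78.5 UPM, and in CA1 at 39.9 and 39.1 against 43.6 and 39.8 UPM. In cluster 15 it was at 105 and 83.9 UPM in the mutants and 219 and 217 UPM in the controls, but control replicate 2 had 1 nucleus there. *Fzd6* had 374 UMIs and was concentrated in cluster 14, at 77.4 and 65.8 UPM in the mutants and 76.7 and 108 UPM in the controls, with 37.4% of its UMIs in 0.857% of all UMIs. Among neurons its highest label was mossy cells (MC), at 5.36 and 6.43 UPM in the mutants and 19.5 and 9.04 UPM in the controls, on 1 to 8 UMIs a sample.

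Genes whose levels followed a member most closely were sought over 81 points, each a label in a sample, among 17413 genes. The points of a sample share its library, so the correlations of log2(UPM + 1) are descriptions. *Fzd2* was followed by *Mgst1* (r = 0.895), *Aox1* (0.887) and *Gm5089* (0.882), *Fzd4* by *Pdgfd* (0.836), *Bst2* (0.828) and *Id1* (0.819), and *Fzd7* by *Mdfic* (0.855), *Bst2* (0.819) and *Slc16a9* (0.812). *Fzd6* was followed by *Zic2* (0.814), *Hspg2* (0.805) and *Gpx8* (0.784), and *Fzd8* by *Irf7* (0.647), *1700017G19Rik* (0.644) and *Hspg2* (0.644). The highest mean of *Irf7* was only 5.59 UPM, in EC, and that of *1700017G19Rik* 8.39 UPM, in CP. In EC, 1 UMI gave *Fzd8* itself a mean of 5.59 UPM, so such values can rest on single UMIs. *Fzd9* was followed by *Gm26669* (0.723), *Rgcc* (0.720) and *Fgfrl1* (0.718), *Fzd10* by *5930412G12Rik* (0.718), *Dcdc2a* (0.666) and *Slc6a12* (0.629), *Fzd1* by *S100a10* (0.676), *Nfat5* (0.637) and *Trp53inp1* (0.634), and *Fzd3* by *Nrg1* (0.626), *Cntn1* (0.556) and *Thrb* (0.555). Between members the highest values were 0.726 for *Fzd4* and *Fzd7*, 0.681 for *Fzd2* and *Fzd4* and 0.672 for *Fzd2* and *Fzd7*, while *Fzd3* reached no more than 0.152, with *Fzd1*, and *Fzd5* no more than 0.147, with *Fzd8*. Of the near relatives in sequence, *Fzd1* and *Fzd2* had a value of 0.506, *Fzd9* and *Fzd10* of 0.069 and *Fzd3* and *Fzd6* of -0.21.

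No Frizzled was called between genotypes in any cell type in nuclei, at a fold change above 2 with an FDR below 0.05 on UMIs summed per mouse and type. Labels of inhibitory and of excitatory neurons were joined for the test, which left 11 types with 10 or more nuclei in every sample, and of 110 pairs of a member and a type 29 had enough UMIs. Of the members, 8 were tested in some type, *Fzd3* in 10 types, and *Fzd5* and *Fzd7* in none. The 0 calls stand beside 0.253% of 132557 tests of a gene in a type that were called. Of the 29 pairs 20 had a log2 fold change below 0 and 9 above, with a median of -0.25, whereas the medians over all genes in the 11 types lay between -0.040 and 0.015. The share of all genes below 0 is not given here. Pairs of the same type or member share samples. In the joined inhibitory type 1 of 6 pairs lay above 0, and in the joined excitatory type 0 of 4. These joined types hold the clusters whose markers go against their labels. In astrocytes 3 of 6 pairs lay above 0, in CA1 2 of 4, in granule cells 1 of 3 and in OPCs 0 of 2. Of the types with 1 pair, mossy cells and oligodendrocytes lay above 0, and CA2 and CA3 below. Of the 29 pairs, 1 had an unadjusted p below 0.05, *Fzd2* in inhibitory neurons, where 12.1% of all genes did. *Wls* was called lower in astrocytes (log2 fold change -4.28), oligodendrocytes (-4.14) and OPCs (-3.16) by the same edgeR quasi-likelihood test.

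*Fzd2* in the joined inhibitory neurons was at 4.24 and 6.79 UPM in the mutants and 10.2 and 10.6 UPM in the controls, with both mutants below both controls (log2 fold change -0.82 ± 0.310, FDR = 0.364 by edgeR's quasi-likelihood test). Most of these UMIs lay in cluster 14, which held 16 of 21, 82 of 87, 38 of 41 and 62 of 71 of the *Fzd2* UMIs of mutant replicates 1 and 2 and control replicates 1 and 2. That cluster made up 3.13% and 6.65% of the type's UMIs in the mutants and 5.81% and 7.45% in the controls. In the other inhibitory nuclei *Fzd2* was at 1.04 and 0.418 UPM in the mutants and 0.789 and 1.45 UPM in the controls, with overlap. Within cluster 14 the log2 fold change was -0.48 ± 0.287 (FDR = 0.915 by edgeR's quasi-likelihood test). *Fzd6* had the same make-up, with 12 of 16, 56 of 65, 18 of 23 and 54 of 57 of its UMIs in cluster 14, and log2 fold changes of -0.70 ± 0.359 in the joined type and -0.43 ± 0.314 within the cluster. With clusters 14 and 15 left out, neither *Fzd2*, *Fzd6* nor *Fzd8* had enough UMIs to be tested in inhibitory neurons.

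**Figure D5:**
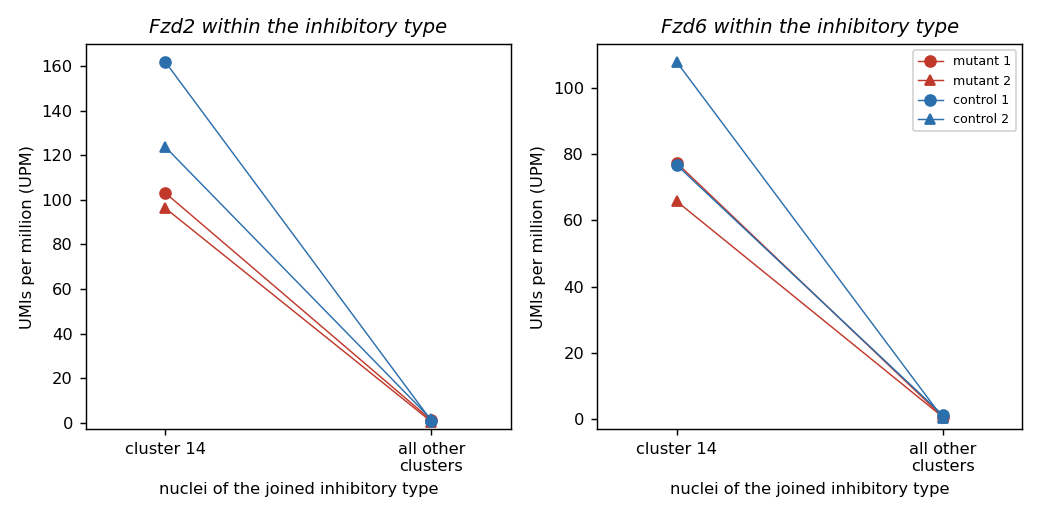
UPM (y axis, linear) of *Fzd2* and *Fzd6* in cluster 14 and in all other nuclei of the joined inhibitory type, with a line joining the 2 values of each sample, controls in blue, mutants in red, circles for replicate 1 and triangles for replicate 2. *Fzd2* drops from 96.3 to 162 UPM in cluster 14 to between 0.418 and 1.45 UPM outside it in every sample.

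The same held for *Fzd2* in the joined excitatory neurons, at 1.36 and 2.72 UPM in the mutants and 2.90 and 6.40 UPM in the controls (log2 fold change -1.11 ± 0.533, FDR = 0.520 by edgeR's quasi-likelihood test). Cluster 19 held 6 of 10, 14 of 25, 8 of 11 and 19 of 24 of those UMIs while making up 0.647% and 2.2% of the type's UMIs in the mutants and 1.97% and 2.92% in the controls. In astrocytes, whose markers fitted their label and where *Wls* was called lower, *Fzd2* had a log2 fold change of -0.37 ± 0.251 and *Fzd6*, at 25.8 and 10.7 UPM in the mutants and 10.7 and 6.79 UPM in the controls, 0.77 ± 0.496. For *Fzd1*, *Fzd3*, *Fzd4* and *Fzd9* in astrocytes the log2 fold changes were 0.12, 0.19, -0.32 and -0.35. None of the 6 passed, beside 0.383% of 11482 genes called in astrocytes.

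In the other types the values were as follows. *Fzd9* in OPCs had a log2 fold change of -0.61 ± 0.363 (FDR = 0.688 by edgeR's quasi-likelihood test), without overlap of the genotypes. For this and other values in nuclei without overlap, the share of all genes without overlap is not given here. *Fzd8* in granule cells was at 0 and 0.584 UPM in the mutants and 1.67 and 1.54 UPM in the controls (-1.58 ± 0.890, FDR = 0.420). The 0 was in the mutant with 90 granule cells, against 2336 and 2007 in the controls. *Fzd3* in mossy cells was at 26.8 and 33.2 UPM in the mutants and 4.87 and 21.7 UPM in the controls (1.16 ± 0.567, FDR = 0.481), with both mutants above both controls and control replicate 1 far below the other samples. Without control replicate 1 the value was 0.57, and without control replicate 2 it was 2.64. In the other 9 types tested *Fzd3* lay between -0.27 and 0.19. *Fzd4* in CA1 was at 1.97 and 1.86 UPM in the mutants and 1.19 and 1.28 UPM in the controls (0.61 ± 0.385, FDR = 0.608), and *Fzd10* in CA1 had a value of 0.096 ± 0.433.

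Whether the genotype effect differed between cell types was tested for each gene in 1 model over all samples and types. Of 9 members tested 0 were called, beside 3.51% of 15649 genes. The lowest value was that of *Fzd6* (FDR = 0.521 by edgeR's quasi-likelihood test), and for *Fzd2*, *Fzd3* and *Fzd4* the FDR was 0.828, 0.684 and 0.796. *Wls* was called (FDR = 2.19e-07).

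The partner genes of the receptors were tested by the same rules, beside the 0.218% of all genes called in bulk. Of 14 Wnt co-receptors and related receptors, a list that also holds the R-spondin receptors Lgr4, Lgr5 and *Lgr6* and the Hedgehog transducer Smo, 1 was called in bulk, *Lgr6*, at 4.93 and 2.43 CPM in the mutants and 36.1 and 32.8 CPM in the controls (log2 fold change -3.24 ± 0.336, FDR = 0.0282 by edgeR's quasi-likelihood test). In nuclei *Lgr6* had its highest mean, 127 UPM, in granule cells, whose markers were lower in both mutants in bulk, and their part in the value of *Lgr6* was not tested. Without control replicate 1 or 2 the log2 fold change of *Lgr6* was -3.16 and -3.30 (FDR = 0.189 and 0.234), and 0 genes of the whole table were called. Of 16 tested genes of Frizzled turnover and sequestration, 21 ligands (Wnts, Norrin and the R-spondins, which bind Lgr receptors rather than Frizzleds), 18 transducers and 12 planar polarity partners, 0 were called. *Apcdd1*, a Wnt inhibitor, at 13.8 and 13 against 26.4 and 25.2 CPM, had an FDR of 0.0244 with a log2 fold change of -0.95, short of the fold required, and so had *Ankrd6*, which was chosen after its values were seen, with -0.73 and an FDR of 0.0225. Among the ligands *Wnt7b*, *Wnt7a*, *Wnt4* and *Wnt5a* were highest per length, at means of 23.4, 10.6, 8.22 and 7.87 TPM, each above every Frizzled. Among the co-receptors *Ryk* (23.5 TPM), *Tspan12* (19.8 TPM) and *Lrp6* (19.3 TPM) were highest, with log2 fold changes of -0.047, 0.27 and -0.13.

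Among these 4 ligands in nuclei, *Wnt4* had its highest mean, 237 UPM, in cluster 14, and *Wnt7a* and *Wnt7b* had theirs, 60.6 and 58.7 UPM, in astrocytes. *Wnt5a* was highest in cluster 14 too, at 68.1 UPM. Of all the genes of these lists and the types in which they were tested, 1 call was made in nuclei, *Wnt4*, higher in granule cells (log2 fold change 2.31, FDR = 0.0137 by edgeR's quasi-likelihood test), beside 1.47% of genes called in that type. The mutants had 90 and 463 granule cells, and the call was lost without mutant replicate 1 (FDR = 0.0689) and without mutant replicate 2 (FDR = 0.492), where no gene was called in that type. *Fzd3*, *Fzd4* and *Fzd8*, the 3 members tested in granule cells, had log2 fold changes of 0.076, -0.12 and -1.58 there.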

How the data were processed

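Bulk reads were aligned by the authors to mm10 with RSEM 1.3.0 and Bowtie2 2.2.9, and what they deposited for a library is each gene's expected count, TPM and effective length. A deposited matrix of signal, the expected counts divided by 1 size factor per library, served here only as an alternative. Reads from nuclei were aligned by the authors with Cell Ranger 3.1.0 to an index of unspliced transcripts of mm10, and the deposited values are UMI counts by gene and nucleus, with a cell type label. Clustering and labels are thus the authors'. The age is from the methods and text of the study, and the groups are from the labels.

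Expected counts were rounded, and genotypes were compared with the quasi-likelihood test of edgeR 4.0.16 in R 4.3.3, on genes kept by filterByExpr and scaled by TMM. FDR is the p-value after Benjamini-Hochberg adjustment over all genes tested, and SE is the size of the log2 fold change divided by the square root of the test's F. EBSeq, which the authors used, was not run. In nuclei the mouse was the replicate, and UMIs were summed per sample and type. The interaction model held mouse, type and genotype within type. UPM is the UMIs of a gene per 1000000 UMIs of a label or type in a sample. A limit from 0 UMIs is 3 UMIs of the total, and intervals are exact binomial at 95%. Both cover counting error only. No doublet caller was run, and nuclei above the 95th percentile of UMIs were left out in an alternative. DESeq2 1.42.0 and limma 3.58.1 gave other alternatives. Leaving out clusters 14, 15 and 19, the differences within replicate numbers and the alternatives for the partner lists were added after the data were seen. The fits were tested on simulated data. Sequences and gene structure were read from GRCm38 with gencode vM21 (samtools 1.23.1), and coding sequences were aligned with Biopython 1.88.

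The members and all lists were chosen with earlier results of these data known. Named are the 10 members, *Wls*, *Xist* and *Ddx3y*, partner genes past a threshold or else up to 4 of a list with the highest level, and for each member that reached 5 UPM in some type the 3 genes with the highest correlation. With 2 mice a group, p-values rest on the spread between these mice.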

Additional observations from a re-analysis of the deposited data

How the results depend on the processing

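Under every alternative run, 0 Frizzleds were called in bulk RNAseq and in nuclei. Of the values of single members, 84 in bulk and 236 in nuclei kept their direction and 6 and 19 reversed. The counts over whole tables moved more, and the cause was not tested. In bulk, against 41 genes lower and 4 higher, DESeq2 called 69 higher, no filter on low counts gave 112 and 201, the authors' matrix in limma gave 0 and 0, and leaving out 1 library gave 0 to 147 lower and 0 to 248 higher. In nuclei, against 159 lower and 177 higher summed over types, no filter gave 780 and 815, and leaving out 1 sample gave 213 to 614 lower and 145 to 1412 higher, the lowest without mutant replicate 2. Genes with an effect differing between types numbered 1368 with no filter, against 549. With the replicate number as a block, 24 and 2 genes were called in bulk and 906 and 1108 in nuclei. The numbers were not taken to pair the samples, since the labels name no shared litter or batch and there are 2 pairs, although in bulk replicate 2 of both genotypes had high *Xist*. Of the partner lists, co-receptors went from 1 call to 0 in limma and to 0 to 1 without a library, turnover from 0 to 1 (DESeq2), 3 (no filter) and 0 to 3 without a library, and ligands from 0 to 1, 2 and 0 to 2.

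Reversed log2 fold changes were those of *Fzd4* in granule cells with the replicate block (0.084), *Fzd1* in astrocytes without the nuclei of most UMIs (-0.36), and, in alternatives added after the data were seen, without clusters 14, 15 and 19, *Fzd4* in excitatory neurons (0.12) and *Fzd3* in inhibitory neurons (-0.16). Leaving out 1 library in bulk gave -0.086 to 0.027 for *Fzd1*, -0.54 to 0.26 for *Fzd3*, -0.34 to 0.45 for *Fzd5*, -0.19 to 0.46 for *Fzd6* and -0.066 to 0.25 for *Fzd9*, with 0.66 to 1.00 for *Fzd4* and 0.77 to 0.90 for *Fzd10*, which kept their direction. In nuclei it gave, for *Fzd1*, -0.67 to 0.12 in CA1 and -0.13 to 0.21 in astrocytes, for *Fzd2*, -0.55 to 0.0056 in astrocytes, and for *Fzd10*, -0.26 to 0.45 in CA1. For *Fzd3* it gave -0.31 to 0.064 in CA3, -0.76 to 0.27 in granule cells, -0.33 to 0.11 in OPCs, -0.20 to 0.23 in inhibitory neurons and -0.0082 to 0.76 in oligodendrocytes. For *Fzd4* it gave -1.06 to 0.70 in inhibitory neurons and -6.73 to 0.063 in granule cells, where the lowest value is fitted to a mutant with 0 UMIs and is no bound. Without mutant replicate 2 the same held for *Fzd8* in granule cells (-6.91) and for *Fzd4* (-7.15) and *Fzd9* (-7.28) in astrocytes, which without mutant replicate 1 were at -1.42, -0.017 and -0.039. Values that kept their direction but moved by over 1.5 times were, among others, those of *Fzd6* in astrocytes (0.41 to 1.64), *Fzd2* in excitatory neurons (-1.69 to -0.49), *Fzd3* in mossy cells (0.57 to 2.64), *Fzd2* (-1.24 to -0.59), *Fzd6* (-1.10 to -0.40), *Fzd8* (-1.41 to -0.18) and *Fzd1* (-1.19 to -0.30) in inhibitory neurons, and *Fzd2* (0.14 to 0.61), *Fzd7* (0.084 to 0.87) and *Fzd8* (-0.39 to -0.11) in bulk. Where 1 sample of a genotype was left, it was assumed to vary like the others.

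Over a fixed set, the labels with 10 or more nuclei in every sample, the highest label was kept for all members but *Fzd2*. *Fzd2* passed from cluster 14 to cluster 19 without mutant replicate 2 or without control replicate 1. Cluster 15, with 1 nucleus in control replicate 2, was outside this set. It had the highest mean of *Fzd3* over all 21 labels, 156 UPM. Few UMIs limit the values in nuclei: *Fzd5*, with 57, and *Fzd7*, with 171, could not be tested in any type.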

Other observations

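In labels with 10 or more nuclei in every sample, cluster 14 had the highest mean for 5 of 23 ligands, 4 of 14 co-receptors, 3 of 17 genes of turnover and sequestration, 5 of 18 transducers and 2 of 12 planar polarity partners. The others were highest in 8 labels for the ligands and 5 for the co-receptors. The share of all genes that were highest in cluster 14 is not given here, so these counts stand without a background. *Lef1*, a transcription factor that acts with beta-catenin, was at 153 to 246 UPM there. Astrocytes were highest for 4 ligands, among them *Ndp*, the gene of Norrin, at 22.9 to 30.4 UPM, and for *Tspan12*, which assists *Fzd4*, at 43.0 to 76.8 UPM. OPCs were highest for *Rnf43*, which removes Frizzleds from the membrane, at 119 to 153 UPM, and astrocytes for its relative *Znrf3*, at 294 to 442 UPM. *Lef1*, *Ndp*, *Rnf43* and *Znrf3* were chosen after their values were seen.

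*Sfrp1* and *Sfrp5*, secreted proteins that bind Wnts, and *Sostdc1* were high in mutant replicate 2 of bulk RNAseq, the library with 9242 TPM of choroid plexus markers. *Sfrp5* was at 0.612 and 3.51 CPM in the mutants and 0.248 and 0.164 CPM in the controls, *Sfrp1* at 6.63 and 35.4 against 5.60 and 6.48 CPM, and *Sostdc1* at 5.91 and 45.6 against 2.96 and 2.81 CPM. None passed edgeR's quasi-likelihood test, with FDR = 0.156, 0.279 and 0.178. *Sfrp1* and *Sfrp5* were chosen after their values were seen. The part of the choroid plexus markers in these values was not tested.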
